A study of Mus musculus with 29 samples.

Results

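Vascular endothelial growth factor (VEGF) signalling was examined through 10 genes, the 5 ligands Vegfa, Vegfb, Vegfc, Vegfd and Pgf and the 5 receptors and co-receptors Kdr, Flt1, Flt4, Nrp1 and Nrp2. They were taken by gene symbol from the 25746 genes of the count files, and all 10 were among the 17031 genes that passed the filter on low counts. The ligands are secreted proteins that act on endothelial cells. Vegfa drives vessel sprouting and permeability through the receptor tyrosine kinase Kdr, whereas Flt1 binds Vegfa, Vegfb and Pgf tightly but signals weakly and so also acts as a decoy. Vegfc and Vegfd act on Flt4, which is best known from lymphatic endothelium, and the neuropilins Nrp1 and Nrp2 are co-receptors that VEGF ligands share with the semaphorins of axon guidance.

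The study asked how immunodeficient and immunosuppressed mice differ from wildtype mice after stroke. RNA was sequenced from brain tissue of 29 samples, with stroked tissue taken 21 days after a photothrombotic stroke of the right sensorimotor cortex. Mice of both sexes were 3 months old. The 3 strains were C57BL/6J wildtype (WT), Rag2-/- on a C57BL/6 background, where T and B lymphocytes do not mature, and NSG on a NOD background, where NK cells are missing as well, so that in NSG mice the immune defect and the background strain cannot be told apart. Non-stroked samples numbered 4 for WT, 3 for Rag2-/- and 4 for NSG, and untreated stroked samples numbered 4, 3 and 3. A further 3 stroked WT samples came from mice that received tacrolimus from subcutaneous osmotic pumps from the day of stroke (acute), and 5 from mice that received it a week later (delayed). Both tacrolimus groups were set against the non-stroked WT samples, since no non-stroked tacrolimus sample was analysed here. The methods describe control RNA as contralesional tissue, while the results speak of naïve mice, so the control samples are called non-stroked. The methods also list fewer NSG mice for sequencing than there are NSG samples, so some stroked and non-stroked samples may come from the same animal, which the tests, treating samples as independent, do not take into account.

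The sample titles fall into 2 cohorts, Imm2 with 20 samples and TF with 9. All non-stroked samples and all Rag2-/- and NSG samples were in Imm2, all delayed tacrolimus samples were in TF, and only untreated stroked WT (2 and 2) and acute tacrolimus (1 and 2) had samples in both. Total counts ran from 32507506 to 43403413 in Imm2 and from 17789044 to 29928311 in TF. B230118H07Rik, a gene that overlaps Rag2, reached no more than 4 counts in any of the 6 Rag2-/- libraries and at least 274 in every other library, as the genotype labels have it, and Rag2 itself had at most 2 counts in any sample. Markers of neurons, astrocytes, oligodendrocytes, microglia and endothelium were detected in every group. In the acute tacrolimus group, the summed level of 7 astrocyte markers was 1400, 1330 and 2310 CPM (counts scaled to the normalised library size) in replicates 1 to 3, against 1140 to 1310 in non-stroked WT and 2220 to 2720 in stroked WT, so replicates 1 and 2 were close to the non-stroked range.

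Levels differed widely between the genes. Divided by exon length, the mean level in non-stroked WT was 36.6 CPM per kb for Vegfb and 19.4 for Vegfa, while Vegfc, Vegfd and Pgf stood at 0.995, 0.795 and 0.62. Vegfb acts mainly on Flt1 and is known for a part in neuronal and vascular survival rather than in sprouting. Among the receptors, Flt1 was highest at 5.63 CPM per kb, followed by Nrp2 at 3.66, Nrp1 at 3.34, Kdr at 1.62 and Flt4 at 0.43. The same 2 ligands led in all 8 groups, and Flt4 was the lowest receptor in all 8. Over the 29 samples, Vegfa had 1191 to 3811 counts and Vegfb 727 to 3590, but Vegfc had only 45 to 115, Vegfd 26 to 158, Pgf 32 to 190 and Flt4 37 to 167, so small changes of these 4 genes were less detectable at this depth.

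**Figure D1:**
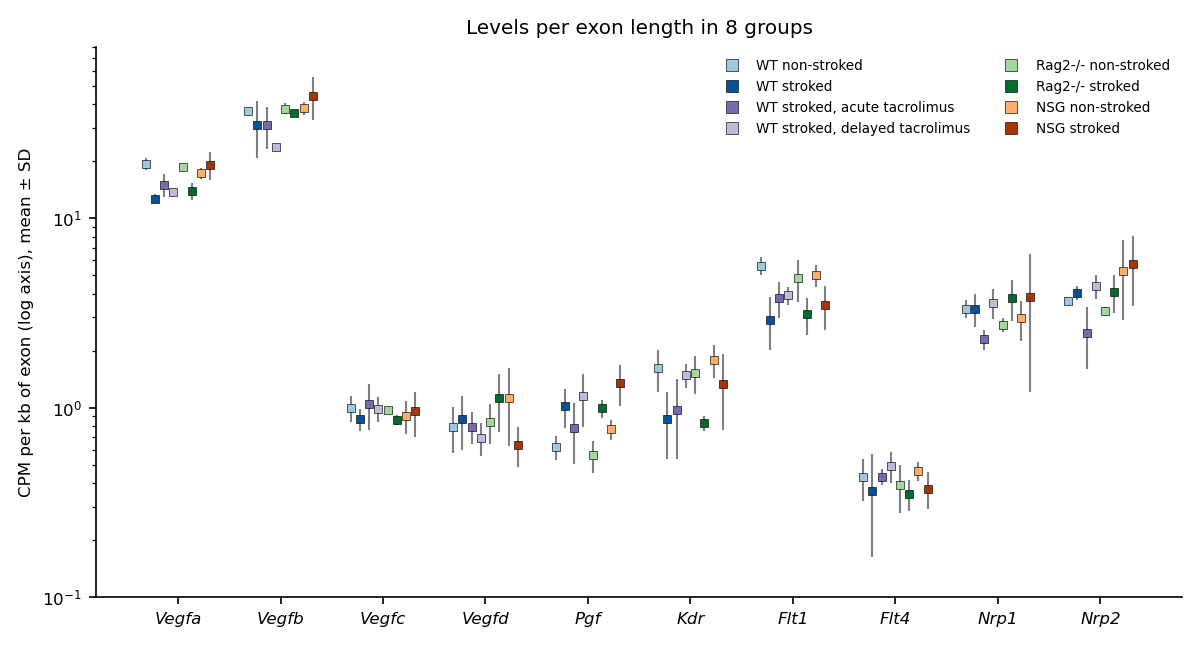
Mean level of each gene in CPM per kb of exon (vertical log axis) in the 8 groups (coloured squares, bars are SD over samples). Vegfb and Vegfa stand above the other 8 genes in every group, and Flt4 lies lowest among the receptors.

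The comparison of stroked with non-stroked WT asked which genes of the family still differed 21 days after injury. Vegfa, Kdr and Flt1 were lower and Pgf was higher. Of the 10 genes, 3 were lower and 1 was higher at an adjusted p below 0.05 (edgeR quasi-likelihood test, Benjamini-Hochberg over 17031 genes). Over all genes tested, 11.6% were lower and 15.2% were higher by the same rule. In bulk tissue, fewer cells of a type and less RNA per cell cannot be told apart. Vegfb, Vegfc, Vegfd, Flt4, Nrp1 and Nrp2 did not pass, with log2 fold changes between -0.25 for Flt4 and 0.15 for Nrp2.

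**Figure D2:**
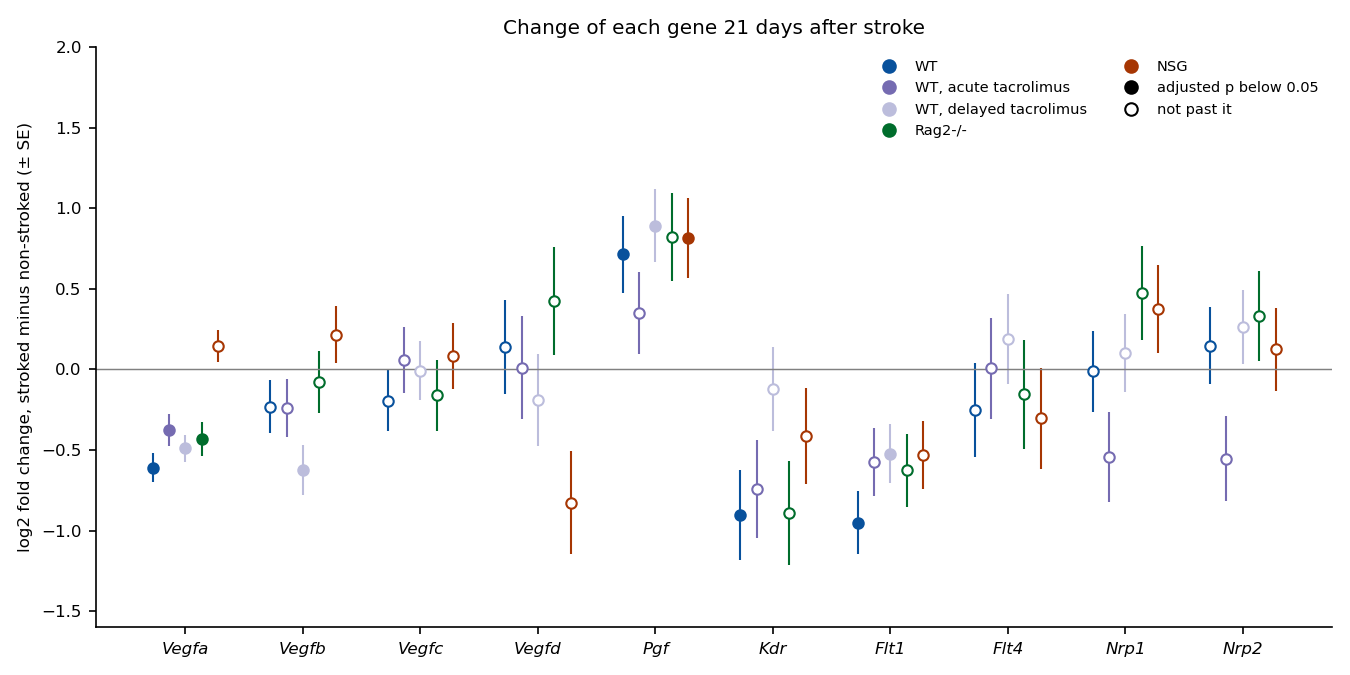
Log2 fold change of stroked minus non-stroked samples with its standard error (vertical axis) for each gene (horizontal axis), coloured by group. Filled points passed an adjusted p of 0.05 (edgeR). Vegfa lies below 0 in all groups but NSG, at 0.14, Pgf lies above 0 in all 5, and Flt1 lies below 0 in all 5. The 3 WT comparisons share the same non-stroked samples.

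Vegfa encodes the main angiogenic ligand. In non-stroked WT it measured 82.9, 82.9, 76.3 and 90.7 CPM, and in stroked WT 58.6, 51.7, 54.6 and 53.3 CPM. Every stroked sample was below every non-stroked sample, and the 2 cohorts of stroked WT lay within the same narrow range. The mean was 83.2 ± 5.90 CPM (SD, n = 4) without stroke and 54.5 ± 2.96 (SD, n = 4) after it, a log2 fold change of -0.61 ± 0.09 (SE, adjusted p = 5.81e-05, edgeR). Within the Imm2 cohort the log2 fold change was -0.59 (adjusted p = 0.0041), and leaving out each sample in turn gave -0.65 to -0.56 with every call kept.

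Flt1, the high-affinity receptor and decoy, had the lowest log2 fold change of the 10 genes in this comparison. It measured 86.2, 78.9, 66.7 and 72.2 CPM in non-stroked WT and 33.3, 27.3, 55.7 and 41.5 CPM in stroked WT. The groups did not overlap, but the Imm2 samples (33.3 and 27.3 CPM) were lower than the TF samples (55.7 and 41.5 CPM). The log2 fold change was -0.95 ± 0.20 (SE, adjusted p = 0.00103, edgeR), and -1.32 within Imm2 (adjusted p = 0.00104).

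Kdr, the main signalling receptor of Vegfa, showed the same split by cohort. Non-stroked WT had 16.2, 19.0, 12.1 and 11.2 CPM, and stroked WT had 6.08 and 4.61 CPM in Imm2 and 10.9 and 9.90 CPM in TF. All stroked samples were below all non-stroked samples, by a narrow margin for TF. The log2 fold change was -0.90 ± 0.28 (SE, adjusted p = 0.0196, edgeR) and -1.45 within Imm2 (adjusted p = 0.00536). The call was lost when non-stroked replicate 1 or 3 or stroked replicate 1 or 2 was left out, with log2 fold changes between -1.10 and -0.71 over all 8 such fits and adjusted p up to 0.0688.

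Some endothelial markers were lower as well. Of 12 endothelial markers, 3 were lower and 0 higher in stroked WT, against 11.6% and 15.2% of all genes. The median log2 fold change was -0.23, against a median within 0.03 of 0 over all genes tested in each of the 5 stroke comparisons. The 3 were Cldn5, a tight junction protein of the blood-brain barrier (-0.92 ± 0.26, adjusted p = 0.0113), Eng, a co-receptor for TGF-beta ligands (-0.56, adjusted p = 0.0154), and Tek, the angiopoietin receptor (-0.57, adjusted p = 0.0445, all by edgeR). Their summed level was 171 to 220 CPM in non-stroked WT, 131 and 134 CPM in the Imm2 stroked samples and 242 and 205 CPM in the TF stroked samples. The TF stroked samples lay within or above the non-stroked range for the marker sum, and their Kdr and Flt1 lay below it. All non-stroked samples were in Imm2 and the marker sum of stroked WT itself differed by cohort. Stroke and cohort therefore cannot be told apart when the TF samples are set against the non-stroked range. In Rag2-/- and NSG mice 0 of the 12 markers passed, where 1.53% and 8.89% of all genes were lower. With acute tacrolimus 0 were higher and 1 was lower, against 6.18% and 2.36% of all genes. With delayed tacrolimus 3 were higher and 0 lower, against 27.6% and 27.6%. What part endothelial RNA content had in the receptor differences was not tested.

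**Figure D3:**
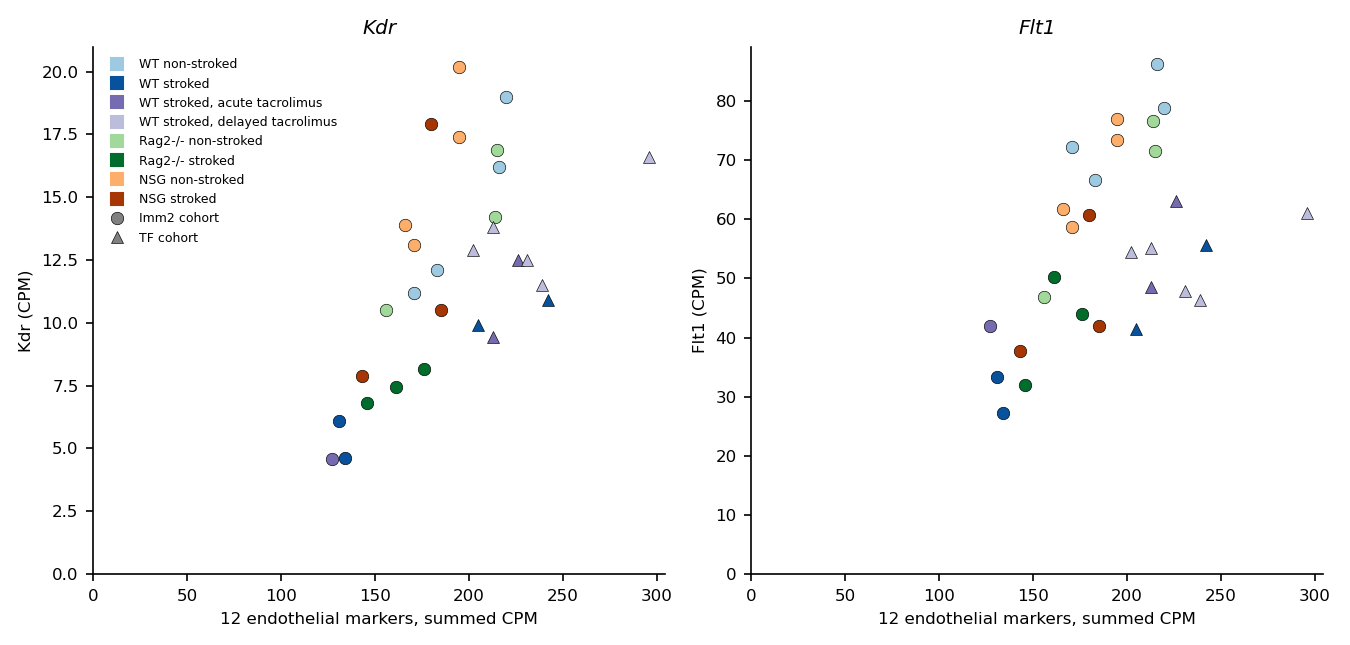
Kdr (left) and Flt1 (right) in CPM against the summed CPM of 12 endothelial markers in the 29 samples, coloured by group, circles for the Imm2 and triangles for the TF cohort. Within Imm2 the lowest marker sums, 127 to 146 CPM, all come from stroked samples, which have low Kdr and Flt1. The TF samples have marker sums of 202 to 296 CPM, which overlap the upper part of the Imm2 range.

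Pgf, placental growth factor, binds Flt1 and not Kdr and is scarce in healthy tissue. It measured 1.68, 2.07, 1.96 and 1.48 CPM in non-stroked WT and 2.15, 2.67, 3.69 and 3.36 CPM in stroked WT. The groups did not overlap, though the lowest stroked sample exceeded the highest non-stroked sample only slightly. The log2 fold change was 0.71 ± 0.24 (SE, adjusted p = 0.0272, edgeR), and within Imm2 it was 0.42 (adjusted p = 0.247). With the cohort as a covariate it was 0.63 and did not pass (adjusted p = 0.134). The call was lost without non-stroked replicate 1 or 5 or stroked replicate 3 or 4, with an adjusted p of up to 0.0992. Fibroblast markers rose in the same samples: 6 of 6 were higher, against 15.2% of all genes, with a median log2 fold change of 3.59. The summed level of these markers was 30.7 to 44.3 CPM without stroke and 276 to 639 CPM after it. Their part in the Pgf difference was not tested.

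The regions upstream of the 3 genes that fell in WT are shown because these genes moved in the same direction. RefSeq promoter entries were found for all 10 genes. Each sequence runs 5′ to 3′ along the transcribed strand from 250 to 11 bases before the outermost annotated start (build GRCm38.p6), at chr17:46032388-46032627 for Vegfa, chr5:75978466-75978705 for Kdr and chr5:147726022-147726261 for Flt1, all on the minus strand and outside the transcribed gene. Capitals mark ACGTG or GCGTG, the core letters bound by hypoxia-inducible factors, and GGGCGG, the GC box of Sp1-type factors, on either strand.
Vegfa: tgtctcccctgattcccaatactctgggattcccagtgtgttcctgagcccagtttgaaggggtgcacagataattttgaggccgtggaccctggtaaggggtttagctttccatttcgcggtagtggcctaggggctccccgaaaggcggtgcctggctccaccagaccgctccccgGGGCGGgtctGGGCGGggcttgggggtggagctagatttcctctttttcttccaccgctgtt
Kdr: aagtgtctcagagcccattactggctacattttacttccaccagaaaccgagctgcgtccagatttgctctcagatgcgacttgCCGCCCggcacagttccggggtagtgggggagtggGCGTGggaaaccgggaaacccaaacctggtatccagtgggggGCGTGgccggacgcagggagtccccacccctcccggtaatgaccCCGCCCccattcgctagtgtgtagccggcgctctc
Flt1: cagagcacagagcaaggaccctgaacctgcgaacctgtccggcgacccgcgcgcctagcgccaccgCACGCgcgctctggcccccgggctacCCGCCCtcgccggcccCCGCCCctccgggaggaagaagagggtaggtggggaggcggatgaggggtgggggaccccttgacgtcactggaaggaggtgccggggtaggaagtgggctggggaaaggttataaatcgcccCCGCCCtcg
GGGCGG was present 2 times upstream of Vegfa, 2 times upstream of Kdr and 3 times upstream of Flt1, and at least once in 31.3% of 32851 such windows. ACGTG or GCGTG was present 2 times in the Kdr window and once in the Flt1 window, as GCGTG, and in 37.4% of all windows. The Vegfa window held neither, which says only that these letters are not in these 240 bases.

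The effect of stroke was then compared across the immunodeficient strains. In Rag2-/- mice, Vegfa was again lower: the non-stroked samples had 81.5, 79.3 and 79.7 CPM and the stroked samples 55.7, 56.2 and 66.6 CPM. The groups did not overlap, and the log2 fold change was -0.43 ± 0.10 (SE, adjusted p = 0.0106, edgeR). It was the 1 gene of 10 that was lower, with 0 higher, against 1.53% of all genes lower and 6.71% higher. Without stroked replicate 1 the Vegfa call was lost (adjusted p = 0.0821).

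Kdr, Flt1 and Pgf had log2 fold changes of -0.89, -0.63 and 0.82 in Rag2-/- mice with adjusted p of 0.0931, 0.0858 and 0.0633 (edgeR). Kdr measured 16.9, 14.2 and 10.5 CPM without stroke and 8.17, 7.43 and 6.83 CPM after it, and Pgf 1.39, 1.98 and 1.52 CPM without and 3.10, 2.52 and 3.03 CPM after it. Neither gene overlapped between the groups, but nor did Vegfc (adjusted p = 0.743) or Nrp1 (adjusted p = 0.368, both by edgeR). Flt1 did overlap. The share of all genes without overlap was not computed. With only the Rag2-/- samples in the fit, Kdr (adjusted p = 0.00742) and Pgf (adjusted p = 0.0195) passed and Flt1 did not (adjusted p = 0.0642). For none of the 10 genes did the stroke response of Rag2-/- mice differ from that of WT past the threshold. By that rule 0.0% of all genes did, 713 genes had an unadjusted p below 0.05, and DESeq2 also called 0.

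In NSG mice, Pgf was the 1 gene of 10 that was higher and 0 were lower, against 13.0% of all genes higher and 8.89% lower. Pgf measured 2.02, 2.11, 2.61 and 2.20 CPM in the non-stroked and 4.81, 4.03 and 2.94 CPM in the stroked samples. The groups did not overlap, and the log2 fold change was 0.81 ± 0.25 (SE, adjusted p = 0.0202, edgeR). The call was lost without stroked replicate 1 (adjusted p = 0.14). Fibroblast markers were higher here too, in 5 of 6, and their summed level in the stroked samples was 166, 1260 and 298 CPM in the order of the Pgf values.

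Vegfa was not lower after stroke in NSG mice. The non-stroked samples had 79.9, 76.7, 71.0 and 69.1 CPM, and the stroked samples 84.9, 94.2 and 66.9 CPM. The groups overlapped: stroked replicates 1 and 2 lay above all non-stroked samples and replicate 3 below them. The log2 fold change was 0.14 ± 0.10 (SE, adjusted p = 0.294, edgeR). It was 0.26 without stroked replicate 3, where Vegfa passed as higher (adjusted p = 0.0434), and 0.02 without stroked replicate 2 (adjusted p = 0.89). The stroke response of NSG minus that of WT was 0.75 ± 0.13 (SE, adjusted p = 0.0345, edgeR), and Vegfa was the 1 gene of 10, and 1 of only 5 genes of 17031 (0.0294%), to pass this test of the difference. The other 4, listed because they passed, were the immediate-early transcription factors Egr1 (1.91) and Nr4a1 (2.30), Gatm (0.78), the first enzyme of creatine synthesis, and Fam214a (-0.88).

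This Vegfa difference kept its direction and, within 0.66 to 0.89, its size, but not its call under other settings. The log2 value was 0.72 within Imm2 (adjusted p = 0.302), 0.73 with only the 4 groups in the fit (adjusted p = 0.282), 0.78 with the cohort as a covariate (adjusted p = 0.0553) and 0.74 with DESeq2 (adjusted p = 0.000211). Leaving out each of 15 samples gave 0.66 to 0.89, and 8 of the 15 fits did not pass, with an adjusted p of up to 0.127 without NSG stroked replicate 2. Those 8 left out NSG stroked replicate 1 or 2, NSG non-stroked replicate 3 or 4, WT stroked replicate 2, 3 or 4 or WT non-stroked replicate 5.

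**Figure D4:**
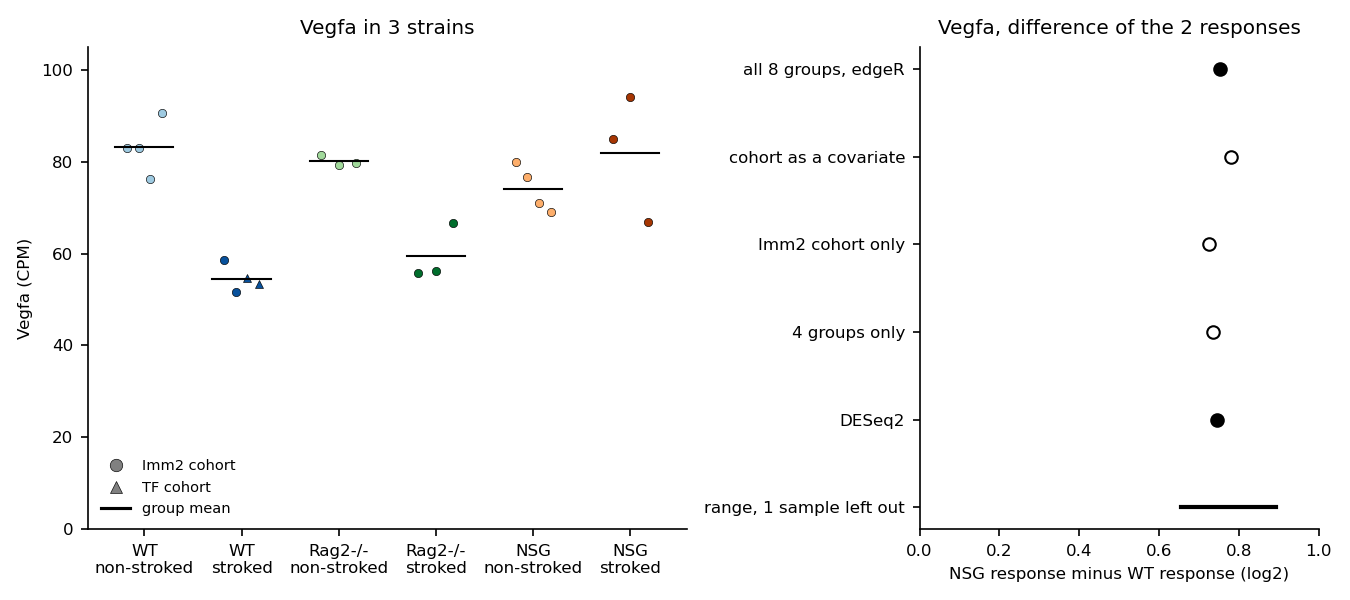
Left, Vegfa in CPM per sample (circles Imm2, triangles TF, lines group means) without and after stroke in the 3 strains. Right, the NSG stroke response minus the WT stroke response of Vegfa (log2) under each fit, filled where the adjusted p was below 0.05, with the range over fits that leave out 1 sample. All values lie between 0.66 and 0.89.

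Other genes of the family in NSG mice did not pass. Flt1 measured 77.0, 61.7, 73.4 and 58.7 CPM without stroke and 41.9, 60.8 and 37.7 CPM after it, and its log2 fold change was -0.53 (adjusted p = 0.0696, edgeR). Stroked replicate 2 lay within the non-stroked range and the other 2 below it, and without replicate 2 Flt1 passed (adjusted p = 0.0179). That sample also had the highest Kdr (17.9 CPM), Nrp1 (66.9 CPM) and Nrp2 (97.8 CPM) of the 3 stroked NSG samples and the highest fibroblast marker sum. Vegfd, a ligand of Flt4, measured 2.22, 1.80, 4.48 and 2.35 CPM without stroke and 1.21, 1.46 and 1.93 CPM after it. Its groups overlapped and its log2 fold change was -0.83 (adjusted p = 0.0648), and it passed without stroked replicate 3 or non-stroked replicate 2. Without non-stroked replicate 3, the sample at 4.48 CPM, the log2 fold change was -0.47 (adjusted p = 0.296).

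Without stroke, no difference between strains passed. For Rag2-/- against WT, NSG against WT and NSG against Rag2-/-, 0 of 10 genes passed in each, against 0.00587%, 9.76% and 6.33% of all genes (edgeR). The unadjusted p was below 0.05 for 349, 3894 and 3099 of all genes, and DESeq2 called 0 of the 10 in each. Nrp2 had the largest value, a log2 difference of 0.70 between NSG and Rag2-/- (adjusted p = 0.129). Without NSG replicate 3, the highest sample, it was 0.37 (adjusted p = 0.57), and without NSG replicate 2 it was 0.87 and passed (adjusted p = 0.0472). Its NSG samples spread from 39.6 to 101.0 CPM, whereas its Rag2-/- samples lay between 37.5 and 40.4 CPM and its WT samples between 40.3 and 45.8 CPM.

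Tacrolimus was compared next. With acute treatment, Vegfa was lower than in non-stroked WT, at 58.7, 74.6 and 59.3 CPM, and the groups did not overlap. Replicate 2 was close to the lowest non-stroked sample. The log2 fold change was -0.37 ± 0.10 (SE, adjusted p = 0.0236, edgeR). It was the 1 gene of 10 to be lower and 0 were higher, against 2.36% of all genes lower and 6.18% higher. The call was lost without non-stroked WT replicate 1 or 5 or acute replicate 3, with adjusted p up to 0.201. Acute replicate 1 was in Imm2 and the other 2 in TF. Acute replicates 1 and 2 had astrocyte marker sums close to the non-stroked range and fibroblast marker sums of 66.3 and 33.5 CPM. Fibroblast sums were 30.7 to 44.3 CPM in non-stroked WT and 276 to 639 CPM in stroked WT. With the cohort as a covariate Vegfa did not pass (-0.41, adjusted p = 0.166), while Kdr did (-1.55, adjusted p = 0.0145), against -0.74 without the covariate (adjusted p = 0.118).

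With delayed treatment, 3 of the 10 genes were lower and 1 higher than in non-stroked WT, against 27.6% of all genes lower and 27.6% higher. All 5 delayed samples were TF and all non-stroked WT samples were Imm2, so the cohort and the group cannot be told apart in this comparison except through the groups that have samples in both. Vegfa measured 58.8, 57.6, 57.6, 63.2 and 59.1 CPM, below every non-stroked WT sample (-0.49 ± 0.09, SE, adjusted p = 5.01e-05, edgeR), and -0.55 with the cohort as a covariate (adjusted p = 0.0105). Flt1 measured 55.1, 46.4, 47.8, 54.5 and 61.1 CPM, also without overlap (-0.52 ± 0.18, SE, adjusted p = 0.0185), but without non-stroked WT replicate 1 its adjusted p was 0.0609. With the cohort as a covariate its log2 fold change was -1.09 and that of Kdr, which was -0.12 without the covariate (adjusted p = 0.708), was -1.20 (adjusted p = 0.0174). Pgf measured 2.53, 3.84, 2.81, 2.58 and 4.96 CPM (0.89 ± 0.23, SE, adjusted p = 0.00196), and 0.74 with the covariate (adjusted p = 0.175).

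Vegfb followed the cohort. It measured 39.2, 37.9, 39.4, 38.3 and 36.1 CPM with delayed tacrolimus against 59.2, 59.9, 61.4 and 54.8 CPM in non-stroked WT, a log2 fold change of -0.62 ± 0.16 (SE, adjusted p = 0.00178, edgeR). The groups did not overlap. In untreated stroked WT, however, it was 62.7 and 66.1 CPM in Imm2 and 36.8 and 34.6 CPM in TF, and over all groups it was 54.8 to 90.8 CPM in the 20 Imm2 samples and 34.6 to 43.9 CPM in the 9 TF samples. With the cohort as a covariate the sign turned, to 0.12 (adjusted p = 0.638). Of the 10 genes, Vegfb was the only member whose 2 cohorts did not overlap, against 5.93% of all genes tested.

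Acute and delayed tacrolimus were each set against untreated stroked WT, and 0 of 10 genes differed in either, against 0.0% and 0.0% of all genes (edgeR). The unadjusted p was below 0.05 for 2168 and 3455 genes, and DESeq2 called 2 and 47 genes, 0 of the 10 among them. Without acute replicate 3 Nrp2 passed in the former (adjusted p = 0.0321), and without stroked WT replicate 4 Vegfb passed in the latter (adjusted p = 0.0407). Acute replicate 3 was the only sample of its group with astrocyte and fibroblast marker sums within the stroked WT range. Delayed against acute treatment gave 1 gene of 10, Nrp2, against 20.3% of all genes. Nrp2, the co-receptor that pairs with Flt4 and with Sema3f, measured 26.2, 21.0 and 41.4 CPM with acute and 49.9, 42.0, 49.8, 56.7 and 61.8 CPM with delayed tacrolimus. The groups did not overlap, but acute replicate 3 lay just under the lowest delayed sample. The log2 difference was 0.82 ± 0.26 (SE, adjusted p = 0.0283, edgeR), and within TF it was 0.76 (adjusted p = 0.159).

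The Nrp2 call was lost without acute replicate 1 or 2 or delayed replicate 5, with an adjusted p of up to 0.175. Nrp1 lay at 19.5, 24.9 and 22.9 CPM with acute and at 36.7, 31.1, 38.0, 26.7 and 43.0 CPM with delayed treatment. It did not pass (0.64 ± 0.27, SE, adjusted p = 0.0876, edgeR). Its groups did not overlap, but nor did those of Vegfb (-0.38, adjusted p = 0.107, edgeR). The share of all genes without overlap in this comparison was not computed. In acute replicates 1, 2 and 3 the fibroblast marker sum was 66.3, 33.5 and 391 CPM, against 360 to 1550 CPM in the delayed samples. Between delayed and acute treatment 20.3% of all genes differed. Of the fibroblast and microglia and macrophage markers, 6 of 6 and 8 of 9 were higher with delayed treatment. Pericyte and smooth muscle, astrocyte, endothelial and choroid plexus markers were higher in 3 of 8, 2 of 7, 1 of 12 and 2 of 8. Neuron markers were lower in 6 of 8, and of 7 oligodendrocyte markers 0 passed. Their part in the neuropilin differences was not tested.

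Ordered by mean level over the 8 groups, Vegfa ran from 83.2 CPM in non-stroked WT through 82.0 ± 13.9 in stroked NSG, 80.1 ± 1.16 in Rag2-/- without stroke, 74.2 ± 4.97 in NSG without stroke, 64.2 ± 9.04 with acute tacrolimus, 59.5 ± 6.16 in stroked Rag2-/- and 59.2 ± 2.30 with delayed tacrolimus to 54.5 CPM in stroked WT (SD, n = 3 to 5). Neighbours differed by more than the larger of their SDs at 3 of the 7 steps. These were from non-stroked Rag2-/- to non-stroked NSG, from there to acute tacrolimus, and from delayed tacrolimus to stroked WT. Flt1 was highest in the 3 non-stroked groups (76.0, 67.7 and 65.0 CPM in WT, NSG and Rag2-/-) and between 39.4 and 53.0 CPM in the 5 stroked groups, with no neighbouring pair apart by more than the larger SD. Pgf was lowest in the 3 non-stroked groups, at 1.63 to 2.23 CPM, and highest in stroked NSG, at 3.92 CPM. Its gap from non-stroked WT up to non-stroked NSG was 0.434 CPM (larger SD 0.266), its only step above the larger SD. From non-stroked NSG up to acute tacrolimus it was 0.0426 CPM (larger SD 0.817). From delayed tacrolimus up to stroked NSG it was 0.578 CPM (larger SD 1.05). Kdr ran from 16.2 CPM in non-stroked NSG to 7.48 CPM in stroked Rag2-/-, and Vegfc only from 2.56 to 2.12 CPM. For neither gene were neighbouring groups apart by more than the larger SD.

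**Figure D5:**
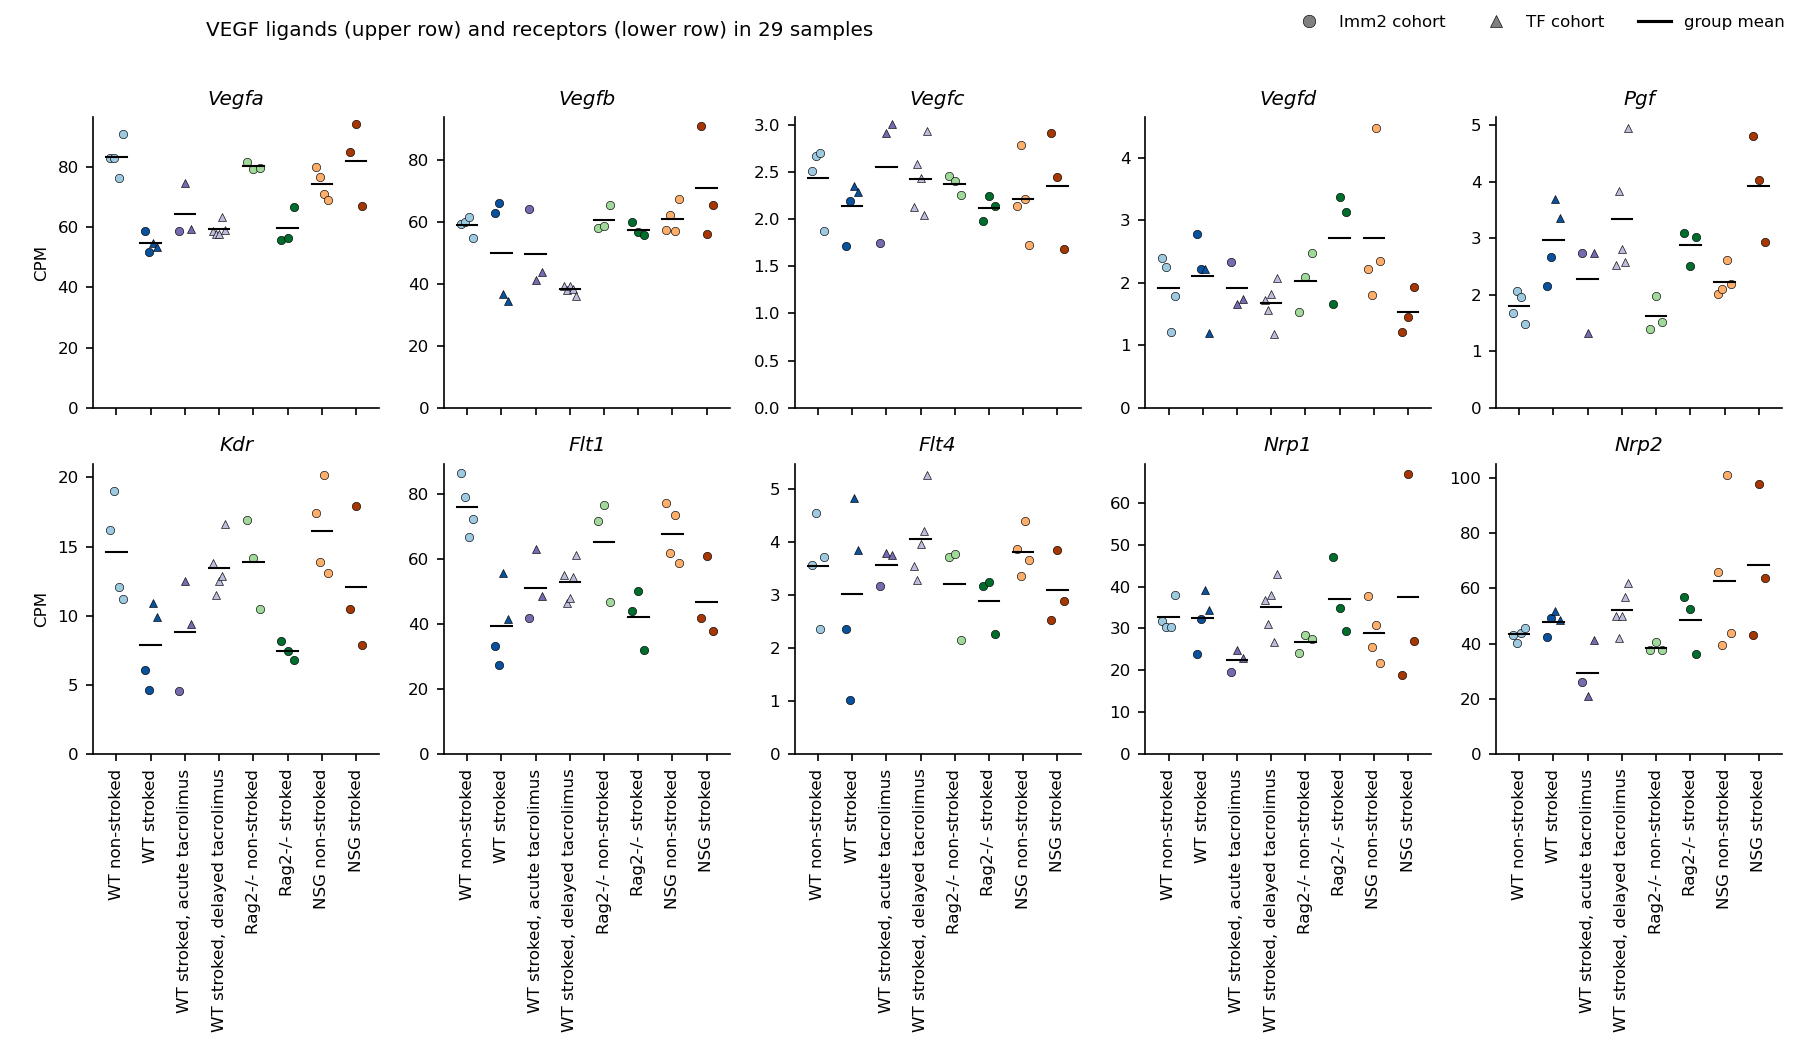
Level of each of the 10 genes in CPM (vertical axes from 0, scale differs by panel) in every sample, by group, circles for the Imm2 and triangles for the TF cohort, lines for group means. Vegfa is low in all stroked groups but NSG, and Vegfb separates by cohort, with 54.8 to 90.8 CPM in Imm2 and 34.6 to 43.9 CPM in TF.

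Genes that act downstream of the receptors gave counts near those of all genes in stroked WT. Of 26 genes of VEGF receptor signalling, 5 were higher and 4 lower, with a median of -0.06, against 15.2% and 11.6% of all genes. They included Sh2d2a, an adaptor that binds Kdr and is also found in T cells (3.09, adjusted p = 0.00159), the kinases Mapk3 (0.44) and Prkcb (-0.49) and the catalytic PI3-kinase subunit Pik3ca (-0.23). In Rag2-/- mice 0 of the 26 passed, against 6.71% of all genes higher and 1.53% lower, and Sh2d2a stood at 1.92 (adjusted p = 0.279, edgeR). For none of the 26, Sh2d2a included, did the Rag2-/- stroke response differ from that of WT past the threshold, where 0.0% of all genes did. In NSG mice 3 were higher and 3 lower, against 13.0% and 8.89% of all genes. With acute tacrolimus the counts were 0 and 1, against 6.18% and 2.36%, and with delayed tacrolimus 7 and 10, against 27.6% and 27.6%.

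Genes of the hypoxia pathway, which induces Vegfa, were also examined. Of 10 hypoxia targets other than the family itself, 4 were higher and 0 lower in stroked WT, with a median log2 fold change of 0.31, against 15.2% and 11.6% of all genes. The 4 were Hmox1 (1.74), which degrades haem and is also induced in macrophages, the glucose transporter Slc2a1 (0.46), the carbonic anhydrase Car9 (1.35) and the glycolytic enzyme Pgk1 (0.62). The counts of higher and lower targets were 3 and 0 with acute tacrolimus, where 6.18% of all genes were higher, and 6 and 1 with delayed tacrolimus, where 27.6% were. For NSG mice they were 5 and 0, with 13.0% of all genes higher, and for Rag2-/- mice 3 and 0, with 6.71%. Of 8 genes of hypoxia-inducible factors and their oxygen-dependent control, Vhl was higher in stroked WT (0.42, adjusted p = 0.0198, edgeR) and none was lower. Vhl is the subunit that marks these factors for degradation. Hif1a stood at -0.21 (adjusted p = 0.149). In NSG mice 0 of the 8 were higher and 1 was lower, where 8.89% of all genes were lower. That gene was Hif1a (-0.33, adjusted p = 0.0451, edgeR).

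Endothelial tip cells lead a vessel sprout. Of 8 of their marker genes tested, 3 were higher and 1 lower in stroked WT, where 15.2% and 11.6% of all genes were. Higher were Angpt2, the angiopoietin that loosens vessels (1.21, adjusted p = 0.0123), the chemokine receptor Cxcr4 (2.26), which leukocytes also carry, and the urokinase receptor Plaur (1.12), which macrophages also carry. Lower was the netrin receptor Unc5b (-0.45, adjusted p = 0.0177, edgeR). Angpt2 was also higher in NSG mice (1.53, adjusted p = 0.00372). In Rag2-/- mice it stood at 1.19 and did not pass (adjusted p = 0.0674, both by edgeR). Among 12 neuropilin partners, 0 were higher and 3 lower in stroked WT, namely Sema3e (-0.69), Sema3a (-0.41) and the plexin Plxna2 (-0.37). Of 6 genes of VEGF-C processing and lymphatic vessels, only Pdpn was higher (1.41, adjusted p = 0.000184), which reactive astrocytes and fibroblasts also express.

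Cell type markers in stroked WT, given for the tissue in which these genes were measured, were higher for astrocytes (7 of 7, median 0.55), microglia and macrophages (8 of 9, median 1.09) and fibroblasts, and lower for neurons (4 of 8, median -0.35). By the same rule 15.2% of all genes were higher and 11.6% lower. Of pericyte and smooth muscle markers 1 of 8 was higher, and of oligodendrocyte markers 0 of 7 passed. Choroid plexus markers did not pass (0 of 8) and varied between single samples, with sums of 4.20 to 1610 CPM.

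Across all 29 samples, the genes with levels most like each member were found by Pearson's r of log2 CPM, as a description in which groups and cohorts are shared. Kdr was most like Tek (0.879), Dll4 (0.863) and Eng (0.851), all endothelial genes. Flt1 was most like Cyyr1 (0.868), Kdr (0.851) and Foxf2 (0.849), and Flt4 like Shroom4 (0.803), Sox17 (0.797) and Robo4 (0.77). Vegfa was most like Phf21b (0.837), the clock gene Arntl (0.831) and Prr15 (0.824). Pgf was most like Pgd (0.896), Procr (0.891) and Ptges (0.887). Vegfb was most like Ptms (0.981), Gm21988 (0.98) and Hcfc1r1 (0.98), values that rest on its 2 separate cohorts. Nrp1 was most like Lats2 (0.836), Stard13 (0.828) and St8sia6 (0.824), and Nrp2 like Best3 (0.87), Cachd1 (0.864) and Cacna1h (0.863). The scarce Vegfc and Vegfd had no gene above 0.657 and 0.708.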

How the data were processed

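The authors isolated total RNA with TRIzol and an RNeasy kit including a DNase step, and prepared libraries with the TruSeq stranded kit after poly(A) selection. The deposited files hold raw read counts per Ensembl gene. The aligner, the counting tool, its strand setting and the genome build are not given in the sources used here. Of 25746 gene IDs, 25712 were found in GENCODE M21 (GRCm38), from which symbols and exon lengths were taken. Nrp2 overlaps Gm37121 on the same strand, which had at most 53 counts, so reads shared by both are uncertain.

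Counts of all 29 samples were fitted in R 4.3.3 with edgeR 4.0.16 (TMM, filterByExpr, 1 quasi-likelihood fit of 8 groups, Benjamini-Hochberg over 17031 genes, adjusted p below 0.05). CPM values use TMM library sizes. SE is the standard error of the log2 fold change. DESeq2 1.42.0, other filters and scalings, the cohort as a covariate, single cohorts, a minimum log2 fold change of 1 and leaving out each sample were alternatives. The code was tested on simulated data. Replicates of each group differed beyond counting noise, with a chi-square of at least 8.42 per degree of freedom, and each was taken as 1 mouse, which the labels do not state. The methods list fewer NSG and tacrolimus-treated mice for sequencing than there are such samples. Members, lists and tests were chosen with earlier results of these data known. Named genes were all 10 members, the up to 4 genes of each list with the smallest p for stroke in WT, and the 3 most correlated genes of each member. Ccl21a was left out because its symbol matches more than 1 gene ID. Other measurements of the study were not used here.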

Additional observations from a re-analysis of the deposited data

Results flagged for a closer look

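The stroke response of Vegfa differed between NSG and WT mice by 0.75 on the log2 scale (adjusted p = 0.0345, edgeR), since Vegfa was lower after stroke in all 4 WT samples and higher than every non-stroked NSG sample in 2 of 3 stroked NSG samples. The difference was 0.72 within the Imm2 cohort (adjusted p = 0.302) and 0.78 with the cohort as a covariate (adjusted p = 0.0553), so it passed in neither. It also did not pass with only the compared groups in the fit (adjusted p = 0.282, all by edgeR), but did with DESeq2 (adjusted p = 0.000211). Of 15 fits that each left out 1 sample, 8 lost the call. The strain background and the immune defect of NSG mice cannot be told apart.

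Nrp2 differed by 0.82 between delayed and acute tacrolimus (adjusted p = 0.0283, edgeR). All 5 delayed samples lay above the 3 acute samples, but acute replicate 3 (41.4 CPM) was just under the lowest delayed sample (42.0 CPM). Within TF the difference did not pass. The call was also lost without acute replicate 1 or 2 or delayed replicate 5.

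In the delayed tacrolimus group, replicate 4 stood apart for Vegfa at 63.2 CPM, above the other 4 samples, which lay between 57.6 and 59.1 CPM. This was the only such sample among 40 sets of 4 or 5 samples checked, where chance marks about 1 in 20.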

How the results depend on the processing

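Size factors of the RLE type, no filter on low counts and a mean of at least 1 CPM gave the same counts of genes passed as reported in all 13 comparisons. With the cohort as a covariate, Vegfa, Kdr and Flt1 passed for stroke in WT and Pgf did not (0.63, adjusted p = 0.134, edgeR). In that fit 3 genes passed for stroke in Rag2-/- (Vegfa, Kdr, Flt1) and 3 in NSG mice (Vegfd, Pgf, Flt1). For the NSG minus WT response and for delayed against acute tacrolimus 0 passed. The 1 gene that passed for acute tacrolimus was then Kdr in place of Vegfa. Vegfb with delayed tacrolimus turned from -0.62 to 0.12 under that covariate, while Vegfa, Kdr and Flt1 passed. Within Imm2, 0 passed for acute tacrolimus and for the NSG minus WT response and 3 for Rag2-/- (Vegfa, Pgf, Kdr). Within TF, 0 passed for delayed against acute tacrolimus. With only the compared groups in the fit, 3 passed for Rag2-/- (Vegfa, Pgf, Kdr) and 0 for acute tacrolimus, NSG, the NSG minus WT response and delayed against acute tacrolimus. DESeq2 passed 2 genes for Rag2-/- (Vegfa, Pgf) and 3 for NSG (Vegfd, Pgf, Flt1). A log2 fold change above 1 in size left 0 in every comparison. The causes were not tested.

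Leaving out 1 sample at a time gave 2 to 4 genes for stroke in WT, 0 to 1 with acute and 3 to 4 with delayed tacrolimus, 0 to 2 in Rag2-/- and 0 to 3 in NSG mice. It gave 0 to 1 for the NSG minus WT response, for delayed against acute tacrolimus, for each tacrolimus group against stroked WT and for non-stroked NSG against Rag2-/-, where Nrp2 passed without NSG replicate 2. The numbers in the titles of non-stroked samples did not pair them, with correlations of deviations from -0.258 to 0.108 between same-numbered samples. A replicate block left 0 of 10 genes in each of the 3 comparisons of non-stroked strains, as did the same samples without it, and it changed the genes passed from 1 to 36, from 1121 to 859 and from 1407 to 1205 over all genes. Vegfc, Vegfd, Pgf and Flt4, with at most 190 counts in a sample, were limited most by depth. Groups of 3 to 5 samples and the uneven spread of the groups over the cohorts limit all comparisons.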
